A study of Mus musculus with 6 samples.

Results

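The genes described here are the tripartite motif (TRIM) family of the mouse, taken as every protein-coding gene whose name is Trim followed by a number and, in some, a letter. The rule finds 68 of the 78298 genes in the table. Their transcripts were measured by RNA sequencing in RENCA cells, a mouse renal adenocarcinoma line. The cells carried a lentiviral vector that expresses AQP1, a membrane water channel (oe-AQP1, 3 samples) or the same vector without the insert (oe-NC, 3 samples). Both groups carried the puromycin resistance cassette, went through 14 days of puromycin selection (2 μg/mL) that began 48 h after transduction, and were harvested as stably transduced populations near confluence, with no other treatment. All 6 samples bear the same batch label. The comparison of oe-AQP1 with oe-NC asks which transcripts differ when AQP1 is overexpressed.

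TRIM proteins share an N-terminal block made of a RING finger, B-boxes and a coiled coil, and the RING finger gives many of them ubiquitin ligase activity. The C-terminal part sets the target: a SPRY (B30.2) domain in the largest subgroup, a PHD finger and bromodomain in the chromatin regulators, NHL repeats or a COS box in others. Several members are induced by interferon and act in the sensing of viral nucleic acid or directly on incoming capsids, whereas others serve in transcriptional repression, muscle protein turnover or microtubule binding. In rodents the relatives of TRIM5, TRIM6, TRIM34 and TRIM30 lie side by side and have expanded by duplication.

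The total expected count per sample was 18385714 to 21920899. Aqp1 itself, the transgene target, had 7713, 8545 and 7838 counts in oe-AQP1 and 41, 25 and 45 in oe-NC, so each library matched its label. Of the renal epithelial markers, Pax8, Krt8, Krt18 and Cdh16 had at least 2177 counts in every sample, while Epcam had 0 counts in all 6, which allows at most 3 counts per library. Of 11 macrophage markers, Ptprc, Adgre1, Itgam, Tyrobp, Fcer1g and Laptm5 reached at most 8 counts in any sample, while Cd68 (576 to 777 counts), Lyz2 (234 to 361), Cd14 (229 to 269), Csf1r (56 to 202) and Spi1 (65 to 99) were detected in all. The oe-NC sample 1 stood apart from oe-NC samples 2 and 3, with a chi-square per gene of 9.47 and 11.1 against 2.00 between the latter. Members whose call turned on oe-NC sample 1 are named below. Nothing in the sources says whether samples of a group came from separate cultures beyond calling them biological replicates, so the p-values measure the spread between these samples, which may be technical.

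Promoter sequences are shown because 6 of the 9 members that differed most between the groups lie in 1 gene cluster, and some of its members resemble each other at their starts. The sequences are from the RefSeq promoter table of build GRCm38.p6, which holds 250 bases before and 50 bases after each gene's start and matched 53 of the 68 members. Capitals mark the letters GAAA, any 2 bases and GAAA again, read on either strand and allowed to overlap, which form the core of the interferon-stimulated response element bound by STAT and IRF proteins. On the printed strand, which is that of the gene, the opposite orientation reads TTTC, any 2 bases and TTTC. Coordinates are those of the exact match in GRCm39, and positions are counted from the RefSeq start, whose first base is 1.
Trim30a, chr7:104114417-104114496, minus strand, capitals at -36 to -27: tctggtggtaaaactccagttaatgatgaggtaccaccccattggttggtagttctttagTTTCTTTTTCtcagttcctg
Trim30d, chr7:104157078-104157157, minus strand, capitals at -41 to -32: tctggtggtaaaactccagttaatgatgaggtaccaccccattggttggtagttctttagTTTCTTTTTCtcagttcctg
Trim12c, chr7:104002566-104002645, minus strand, capitals at -29 to -20: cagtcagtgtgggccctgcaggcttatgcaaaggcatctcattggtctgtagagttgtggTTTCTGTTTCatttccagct
Trim12a, chr7:103964673-103964702, minus strand, capitals at 11 to 20: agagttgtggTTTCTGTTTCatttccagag
Trim34a, chr7:103893664-103893693, plus strand, capitals at 11 to 20: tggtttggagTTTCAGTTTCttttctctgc
Trim21, chr7:102214654-102214683, minus strand, capitals at 14 to 29: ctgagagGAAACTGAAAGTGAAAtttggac
Trim26, chr17:37147824-37147903, plus strand, capitals at -160 to -145: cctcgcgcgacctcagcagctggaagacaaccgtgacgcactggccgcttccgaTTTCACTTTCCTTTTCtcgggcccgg

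The stretches of Trim30a and Trim30d were identical, and their windows shared a run of 118 bases. Trim12a and Trim12c shared a run of 71 bases, and Trim12a and Trim5 one of 241 bases. Trim34a and Trim34b, although close relatives, shared no run above 11 bases in these windows. The letters were found in 9 of the 53 members with a window, against 1079 of all 27025 genes of the promoter table (3.99%), and Trim5 and Trim2 are the members not printed above. A second RefSeq start of Trim30a also had the letters, at 3 to 12 (chr7:104095311-104095340), and is not printed either. Within the chromosome 7 cluster described next, 6 of 10 members held the letters (Trim5, Trim12a, Trim12c, Trim30a, Trim30d and Trim34a) and Trim6, Trim30b, Trim30c and Trim34b did not. A match describes the sequence and is not a measured binding site, and its part in the results was not tested.

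Of the 68 members, 45 had enough counts to be tested with limma-voom, and 16 rose and 3 fell in oe-AQP1 at a false discovery rate (FDR, the Benjamini-Hochberg adjusted p over all genes tested) under 0.05. Over all 15522 genes tested, 16% were higher and 16.6% lower by the same rule, and 32.5% passed in either direction. With a log2 fold change (log2FC, oe-AQP1 over oe-NC) beyond 1 as well, 9 members were differentially expressed genes (DEGs) and higher, against 4.39% of all genes, and 0 members were lower DEGs, against 0.844%. The lowest log2FC of any tested member was -0.73, so no member passed the lower DEG threshold at an unadjusted p either. The 9 were Trim30c, Trim30d, Trim21, Trim30a, Trim34b, Trim30b, Trim34a, Trim14 and Trim26. The same 9 members, and 0 lower DEGs, were called by edgeR's quasi-likelihood test and by DESeq2. The median log2FC was 0.12 over the 45 tested members and 0.00 over all genes. In CPM (counts per 1000000 counts of the scaled library), the groups did not overlap for 23 members that were higher and 4 that were lower, against 23.5% and 23.8% of all genes. With 3 samples against 3, the exact two-sided permutation test over samples cannot fall below 0.1.

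**Figure D1:**
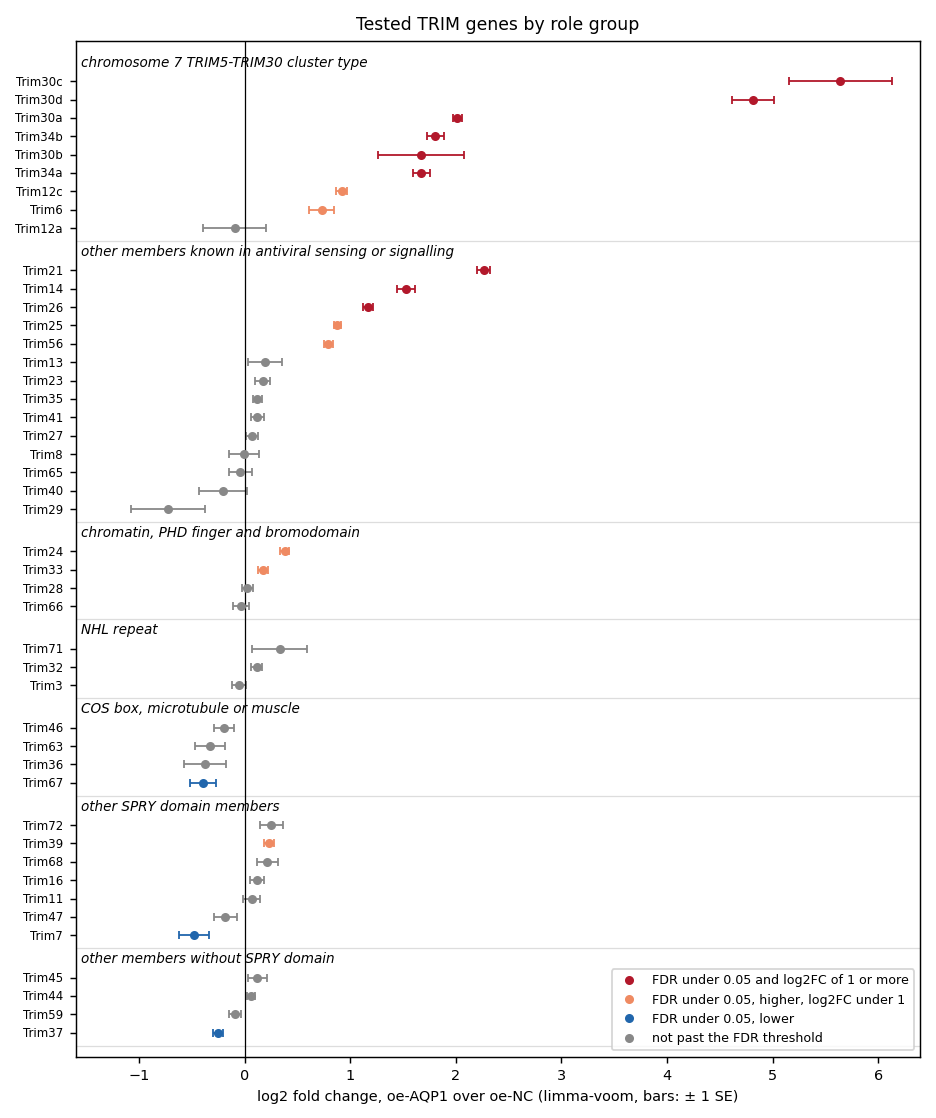
Log2 fold change of oe-AQP1 over oe-NC (horizontal axis) of the 45 tested TRIM genes, one row each, in 7 role groups; points are limma-voom estimates, bars 1 SE, n = 3 per group. Colour gives the call: the 9 genes in dark red passed the FDR with log2FC above 1, and they sit in the uppermost groups, the chromosome 7 cluster and the antiviral members.

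All members together made up 0.311 to 0.317% of the counts in the oe-AQP1 libraries and 0.218 to 0.234% in the oe-NC libraries. Their summed level was 3131 ± 22.5 CPM (SD, n = 3) in oe-AQP1 and 2247 ± 96.3 CPM in oe-NC, a ratio of 1.39. Trim30a contributed 25.8% of that difference in level, Trim25 18.2%, Trim26 12.1%, Trim56 9.92%, Trim21 9.22% and Trim12c 5.71%, which add up to 80.9%. The members with the highest fold changes, Trim30c and Trim30d, were therefore not those that added most to the level. In these bulk libraries, more transcripts per cell and more cells that express a gene cannot be told apart.

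The chromosome 7 cluster, from the start of Trim6 to the end of Trim30d, spans 289108 bases (chr7:103868000-104157107, GRCm39, GENCODE M39) and holds 10 TRIM genes. Of the 9 tested, 8 were higher and 6 of them were DEGs, with a median log2FC of 1.67. Over all genes tested, 16% were higher, 4.39% were higher DEGs and 16.6% were lower, with a median of 0.00. The summed level of the 10 TRIM genes was 515 to 532 CPM in oe-AQP1 and 153 to 168 CPM in oe-NC. The 11 other annotated genes in the interval, which are lncRNAs, small nuclear RNAs and processed pseudogenes, had at most 3 counts in any sample and were not tested.

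Trim30a, which restrains NF-κB signalling downstream of Toll-like receptors, had the most counts of the cluster in every sample. It had 5887, 6733 and 6279 counts in oe-AQP1 and 1401, 1430 and 1605 in oe-NC. Every oe-AQP1 sample was above every oe-NC sample, and the log2FC was 2.02 (SE 0.04, limma-voom FDR 1.90e-10). Its paralog Trim30d had 608, 750 and 626 counts against 19, 19 and 28. The groups were far apart, with a log2FC of 4.82 (SE 0.20, FDR 3.53e-08).

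Trim30c was nearly absent from the control cells. Its counts were 70, 75 and 71 in oe-AQP1 and 1, 0 and 3 in oe-NC. The ratio of the summed counts, scaled for depth, was 51.3, with an exact 95% interval of 19.8 to 190.0 that covers counting error only, and the fitted log2FC was 5.64 (SE 0.49, FDR 1.37e-05). Trim30b was low in all samples, with 15, 13 and 16 counts in oe-AQP1 and 2, 5 and 6 in oe-NC. Its groups did not overlap either, at a log2FC of 1.67 with a wide error (SE 0.41, FDR 0.0106), and it fell to 1.26 (FDR 0.0416) without oe-NC sample 1. A filter of 10 counts in every sample left Trim30b and Trim30c untested.

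Trim34a and Trim34b, the mouse relatives of the capsid-binding factor TRIM34, rose by similar amounts. Counts of Trim34a were 746, 781 and 751 in oe-AQP1 and 200, 217 and 263 in oe-NC. For Trim34b they were 536, 607 and 613 in oe-AQP1 and 155, 148 and 173 in oe-NC. Neither gene's groups overlapped, and the log2FC was 1.67 (SE 0.08, FDR 1.19e-07) for Trim34a and 1.81 (SE 0.08, FDR 6.93e-08) for Trim34b. These genes share sequence: 33.6% of the 100-base stretches of Trim34a transcripts and 25.0% of those of Trim34b recur in other genes. Those of Trim34a were shared most with Trim34b and next with the opposite-strand lncRNA Gm47248, which had 0 counts in every sample. The 33.6% is therefore not all shared within the pair, but the split of reads between the pair is uncertain. Their summed counts gave a log2FC of 1.73 (SE 0.06, FDR 1.01e-08).

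The members related to TRIM5, a restriction factor that recognises retroviral capsids in primates, did not move together. Trim12c had 2062, 2426 and 2221 counts in oe-AQP1 and 1056, 1121 and 1192 in oe-NC, a log2FC of 0.92 (SE 0.05, FDR 6.32e-07). Trim12a, whose promoter carries the same letters, had 21, 19 and 13 counts against 14, 15 and 25. Its groups overlapped and the log2FC was -0.09 (SE 0.30, FDR 0.841). Trim5 had 0, 3 and 0 counts in oe-AQP1 and 0 in all oe-NC samples, and was not tested. Trim6, a ligase that makes unanchored ubiquitin chains for the kinase IKKε, had 231, 289 and 273 counts against 160, 114 and 183, with a log2FC of 0.73 (SE 0.12, FDR 0.00119).

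**Figure D2:**
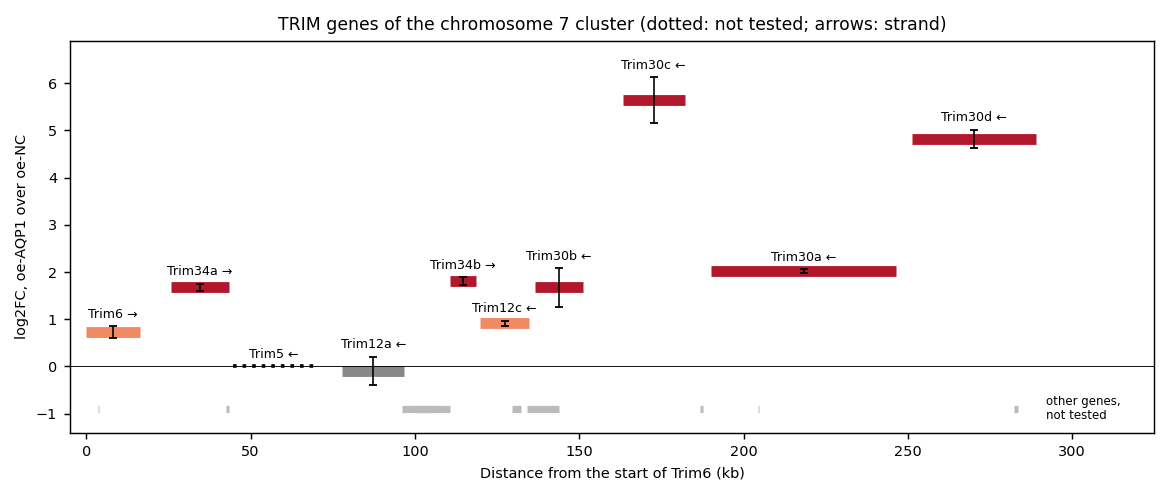
The chromosome 7 cluster, with the distance from the start of Trim6 in kb on the horizontal axis and log2FC of oe-AQP1 over oe-NC on the vertical axis; each bar spans a gene, vertical lines are 1 SE, n = 3 per group, grey bars near the bottom are other annotated genes. The 2 highest genes, Trim30c and Trim30d, lie in the right part of the map and Trim12a, in grey, and the untested Trim5 (dotted) lie next to each other near the centre left.

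Shared sequence in the rest of the cluster was lower: 13.7% of the 100-base stretches of Trim12c, 4.40% of Trim30d and 0% of Trim30c recur elsewhere. Summed over Trim30a to Trim30d the log2FC was 2.15 (SE 0.04, FDR 1.20e-10), and over Trim12a and Trim12c 0.91 (SE 0.05, FDR 6.50e-07). The sums were added after the values had been seen.

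Outside the cluster, 16 members are known from antiviral sensing or signalling, of which 14 were tested. In this group 5 were higher, 3 of them DEGs, 0 were lower (also at an unadjusted p under 0.05) and 9 did not pass the threshold, and the median log2FC was 0.15. Over all genes tested, 16% were higher and 16.6% lower. The 5 higher members were Trim21, Trim14, Trim26, Trim25 and Trim56. Among the other 9, the log2FC ran from -0.73 (Trim29, FDR 0.142) to 0.19 (Trim13, FDR 0.398).

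Trim21, a cytosolic receptor that binds the constant part of antibodies and ubiquitinates what they coat, lies on chromosome 7 outside the cluster (chr7:102207128-102214704, GRCm39). Its counts were 1979, 2254 and 2187 in oe-AQP1 and 447, 360 and 463 in oe-NC. The groups were well apart, and the log2FC was 2.27 (SE 0.06, FDR 1.18e-09). None of its 100-base stretches recurs in another gene.

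Trim14, an adaptor of the mitochondrial antiviral signalling complex that has no RING finger in the deposited domain annotation, had 1007, 1064 and 1015 counts in oe-AQP1 and 392, 297 and 332 in oe-NC. Here oe-NC sample 1 was the highest of the controls and still far below the oe-AQP1 samples, with a log2FC of 1.53 (SE 0.08, FDR 3.42e-07). Exons of the opposite-strand gene Nans cover 1356 of its 6175 exonic bases, and whether reads were counted by strand is not given in the sources used here. Counts of Nans itself ran from 1251 to 1399 with AQP1 overexpression and from 1268 to 1517 in the controls.

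Trim26, which lies in the major histocompatibility region of chromosome 17 and has been linked to the turnover of IRF3, had 3794, 4261 and 3931 counts in oe-AQP1 and 1800, 1486 and 1770 in oe-NC. The lowest oe-AQP1 sample was above the highest oe-NC sample, with a log2FC of 1.17 (SE 0.05, FDR 3.48e-08). Trim25, the ligase of the RNA sensor RIG-I, had 6964, 7772 and 7256 counts against 3827, 3457 and 4097. Its log2FC of 0.88 had the smallest error of the family (SE 0.03, FDR 1.72e-08), although it stayed under the DEG threshold. Trim56, which promotes signalling from cGAS and STING, rose as well, with a log2FC of 0.79 (SE 0.04, FDR 3.67e-07) and counts of 4013, 4519 and 4416 against 2434, 2217 and 2445.

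**Figure D3:**
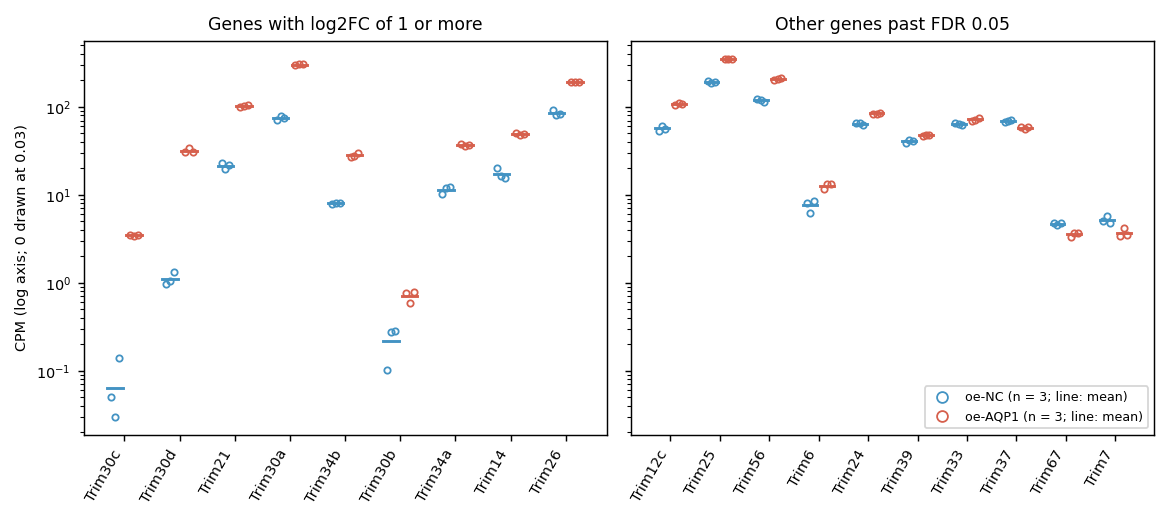
CPM on a log axis of the 19 TRIM genes past an FDR of 0.05, per sample (circles) with the group mean (line), n = 3 per group; the oe-NC sample of Trim30c with 0 counts is drawn at 0.03. In the left panel, with the 9 DEGs, all oe-AQP1 circles lie above all oe-NC circles. In the right panel, Trim37, Trim67 and Trim7 have the oe-AQP1 circles below the oe-NC circles.

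The chromatin members, which carry a PHD finger and bromodomain, changed little. Trim24, a co-regulator of nuclear receptors, had 1654, 1839 and 1759 counts in oe-AQP1 and 1282, 1206 and 1340 in oe-NC, with a log2FC of 0.38 (SE 0.04, FDR 8.36e-05). Trim33, which regulates SMAD signalling, had 1379, 1578 and 1535 against 1275, 1174 and 1320, with a log2FC of 0.18 (SE 0.05, FDR 0.0143). For both genes the groups did not overlap, but the call of Trim33 was lost without any of oe-AQP1 sample 2, oe-AQP1 sample 3 and oe-NC sample 3. Trim66, a repressor best known from the testis, had 296, 336 and 320 counts against 307, 307 and 314 and overlapped between the groups (log2FC -0.04, SE 0.07, FDR 0.750).

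Trim28 (KAP1), the corepressor that zinc finger proteins bring to endogenous retroviruses, had 6438, 7136 and 6574 counts in oe-AQP1 and 6791, 5609 and 6419 in oe-NC. The oe-NC sample 1 was the highest control, the groups overlapped and the log2FC was 0.03 (SE 0.05, FDR 0.728). Without oe-NC sample 1 the log2FC was 0.09 (FDR 0.00208). Most of its exonic bases in the annotation (67.8%) are also covered by exons of Chmp2a on the opposite strand, which had 956 to 1229 counts per sample. Of the 13 genes fixed as the TRIM28 corepressor complex, all tested, 4 were higher, with the silencing factor Tasor at the top (log2FC 0.39, FDR 2.31e-04), and 3 were lower, with the nucleosome remodeller Chd3 at the bottom (log2FC -0.58, FDR 7.56e-05). The median over the list was 0.07. Over all genes tested, 16% were higher and 16.6% lower at the same FDR.

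No NHL repeat member passed the threshold: the 3 tested, Trim71, Trim32 and Trim3, had log2FC of 0.33 (FDR 0.359), 0.11 (FDR 0.108) and -0.05 (FDR 0.587), and Trim2 was not tested. At an unadjusted p under 0.05 limma-voom called 1 of the 3, Trim32. For this group and the next, the shares over all genes tested were 16% higher and 16.6% lower at an FDR under 0.05. Of the COS box members, which bind microtubules or act in muscle, 4 of 8 were tested and all had a log2FC below 0, with a median of -0.35. In this group Trim67, a neuronal relative of TRIM9, passed the threshold, with 66, 80 and 76 counts in oe-AQP1 and 95, 82 and 101 in oe-NC (log2FC -0.40, SE 0.12, FDR 0.0315). The call was unstable, as 9 of 16 alternatives lost it, the removal of any single sample included. Trim63 (MuRF1), a ligase of muscle atrophy, had a log2FC of -0.33 (SE 0.14, FDR 0.104) and was called without oe-NC sample 2 (-0.45, FDR 0.0379). Trim46 had -0.20 (FDR 0.140), which became -0.07 (FDR 0.243) without oe-NC sample 1 and -0.28 (FDR 0.0474) without oe-NC sample 3. Trim36 had -0.38 (FDR 0.181).

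In the other SPRY members, 7 of 21 were tested, with 1 higher and 1 lower. These counts lie near the shares over all genes tested, 16% higher and 16.6% lower. Trim39, which stabilises the proapoptotic protein MOAP1, had a log2FC of 0.23 (SE 0.05, FDR 0.00475). Trim7, a binder of glycogenin, had the lowest log2FC of those past the threshold, -0.48 (SE 0.14, FDR 0.0239), with 67, 92 and 71 counts against 98, 104 and 102, and its call was lost in 5 of 16 alternatives, DESeq2 and the removal of oe-AQP1 sample 1, oe-AQP1 sample 3 or oe-NC sample 2 among them. Among the members without a SPRY domain, Trim37, a ligase that limits centriole assembly, was lower (log2FC -0.25, SE 0.05, FDR 0.00200), with 1167, 1247 and 1211 counts in oe-AQP1 and 1319, 1270 and 1522 in oe-NC. After scaling for depth the groups were apart, at 56.7 to 59.0 CPM in oe-AQP1 and 67.2 to 71.4 CPM in oe-NC.

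By the Pfam domains listed in the deposited table, 23 tested members had a SPRY or PRY domain, and 12 of them were higher and 2 lower, with a median log2FC of 0.26. Of the 22 tested members without one, 4 were higher and 1 lower, with a median of 0.01. Outside the cluster, 5 of 16 members with the domain and 3 of 20 without it were higher, with medians of 0.12 and 0.01. Over all genes tested, 16% were higher, so the 3 of 20 lie near that share. The deposited gene ontology terms place 24 members in the innate immune response, of which 18 were tested, 8 were higher and 0 lower. Among the 27 tested members without that term, 8 were higher and 3 lower. These counts stand beside 16% higher and 16.6% lower over all genes tested.

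**Figure D4:**
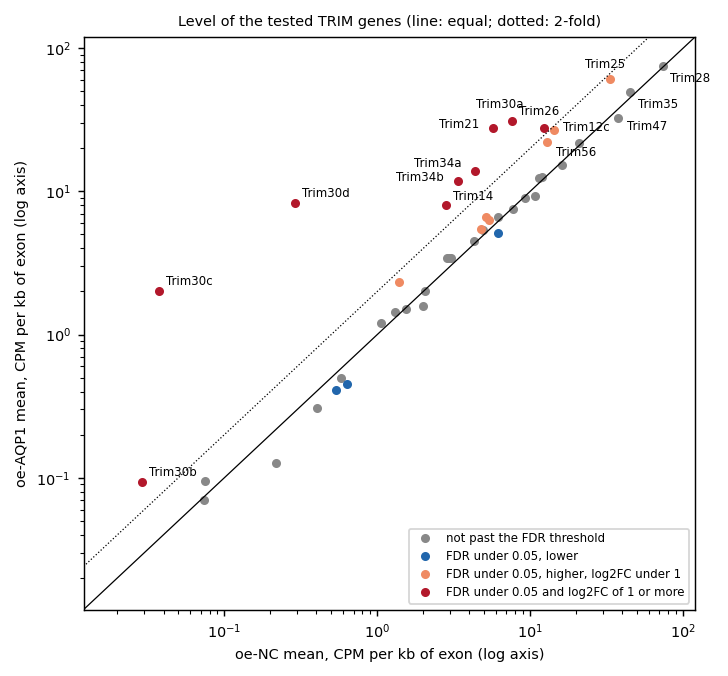
Mean level per length (CPM per kb of exon, log axes) of the tested TRIM genes in oe-NC (horizontal) and oe-AQP1 (vertical), n = 3 per group; the solid line marks equal levels and the dotted line a 2-fold higher level in oe-AQP1. Trim28 is at the upper right on the line of equality, whereas Trim30c and Trim30d are the farthest above the dotted line.

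Levels between genes were compared as CPM per kb of annotated exon. Trim28 was the highest member in both groups, at 75.0 CPM per kb in oe-AQP1 and 73.7 in oe-NC. Trim25 moved from the fourth place in oe-NC (33.4 CPM per kb) to the second in oe-AQP1 (61.3), past Trim35 (45.3 and 49.2) and Trim47 (37.6 and 32.8). Trim30a went from 7.65 to 30.9 CPM per kb, from rank 15 to rank 5, and Trim21 from 5.72 to 27.5, from rank 18 to rank 7. Trim30c reached only 2.02 CPM per kb in oe-AQP1 despite its high fold change.

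Trim35, an abundant member that acts on TRAF3 and on pyruvate kinase, was the member nearest to the threshold without passing it. It had 6570, 7496 and 7128 counts in oe-AQP1 and 6513, 5596 and 6400 in oe-NC, with a log2FC of 0.12 (FDR 0.0551). Without oe-NC sample 1 the log2FC was 0.17 (FDR 8.70e-06). In that fit, which has 2 control samples, Trim8, Trim27, Trim28, Trim32, Trim35, Trim68 and Trim72 were also higher, with log2FC of 0.09 to 0.33, Trim59 was lower (-0.14), and Trim67 was no longer called. Among members with a mean of at least 5 CPM in oe-NC, sample 1 exceeded the mean of the other 2 controls most in Trim8 (1.52 times) and Trim47 (1.41 times). The log2FC of Trim47 was -0.18 (FDR 0.255) with it and -0.02 (FDR 0.756) without it. All 9 DEGs stayed DEGs without it, as they did without any other sample.

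The 23 members that were not tested had few or no counts. Trim9, Trim42, Trim60, Trim61 and Trim80 had 0 counts in all 6 samples, which allows at most 3 counts per library, or 0.136 to 0.164 CPM. Another 16 had at most 9 counts in any sample (Trim5, Trim10, Trim15, Trim31, Trim38, Trim43a, Trim43b, Trim43c, Trim50, Trim52, Trim54, Trim55, Trim58, Trim62, Trim69 and Trim75). The remaining pair were Trim2, with 9, 22 and 12 counts against 5, 8 and 8, and Trim17, with 0, 20 and 6 against 0, 5 and 4. The count filter left these genes out, so a difference in them was not tested in the fit used here.

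Genes that work with TRIM proteins were examined as lists chosen by function. Their counts stand beside 16% of all genes tested that were higher and 16.6% that were lower. Of 10 proteins of TRIM type whose names fall outside the naming pattern, 7 were tested, 3 were higher and 1 lower, with a median log2FC of -0.03. The nuclear body protein Pml had 5240, 5939 and 5513 counts in oe-AQP1 and 2366, 1891 and 2204 in oe-NC (log2FC 1.30, SE 0.06, FDR 5.17e-08). Rnf135 (Riplet), the ligase that acts with TRIM25 on RIG-I, had a log2FC of 0.77 (SE 0.09, FDR 1.52e-04). Fsd2 was highest by fold with few counts (21, 14 and 18 against 2, 1 and 1, log2FC 3.25, FDR 3.40e-04), and Rnf207 was lower (log2FC -0.74, FDR 0.0293). The microtubule-bound Mid1 and Mid2 did not pass the threshold (log2FC -0.03, FDR 0.797, and -0.25, FDR 0.0675).

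Of 15 ubiquitin-activating and ubiquitin-conjugating enzymes, 4 were higher and 1 lower, and the median was 0.08. Over all genes tested, 16% were higher and 16.6% lower. Ube2l6, which serves ISG15 conjugation, stood far above the others, with 1113, 1300 and 1131 counts against 68, 59 and 81 (log2FC 4.01, SE 0.11, FDR 1.18e-09). Uba1, the main activating enzyme, was lower (log2FC -0.26, FDR 1.88e-04). The enzymes that supply most TRIM ligases with ubiquitin, Ube2d2a, Ube2d3 and Ube2n, had log2FC of -0.08, 0.08 and 0.01 and were not called, whereas Ube2d1 was higher (0.35, FDR 0.00405). Ube2e1 (0.58, FDR 7.69e-05) and Ube2v2 (0.18, FDR 0.0270) were higher as well.

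Among 22 sensors and adaptors on which TRIM proteins act, 21 were tested, 12 were higher and 2 lower, with a median of 0.27. The shares over all genes tested were 16% higher and 16.6% lower. The 6 DEGs were the RNA sensors Tlr3 (log2FC 2.48, FDR 1.35e-09), Dhx58, Ifih1 and Rigi, the factor Irf7 and the peptidoglycan sensor Nod2. Rigi, the substrate of TRIM25, had 8694, 9503 and 8907 counts against 3166, 3065 and 3478 (log2FC 1.41, FDR 4.61e-10). Its adaptor Mavs was not called (log2FC 0.06, FDR 0.283). At the other end were the segregase Vcp (-0.35, FDR 1.42e-05) and the kinase Map3k7 (-0.19, FDR 0.0122).

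The 10 interferon-stimulated genes outside the family were all higher and 9 of them were DEGs, with a median log2FC of 1.86 and a range from 0.68 (Irf9) to 5.91 (Mx1). Over all genes tested, 16% were higher, 4.39% were higher DEGs and 16.6% were lower. The list was chosen with earlier results of these data known, so its count is not independent of them. The summed level of these 10 genes was 6691 to 6727 CPM in oe-AQP1 and 1267 to 1329 CPM in oe-NC. The part of this shift in the TRIM differences was not tested. Of 11 macrophage markers 5 were tested, 0 were higher (1, Cd68, at an unadjusted p under 0.05) and 2 lower (Csf1r and Lyz2), and their summed level was 63.8 to 66.7 CPM in oe-AQP1 against 72.4 to 76.7 CPM in oe-NC, while the T and NK cell markers summed to at most 0.219 CPM in any sample. Of the 9 renal epithelial markers tested, 0 were higher and 5 lower, with summed levels of 850.0 to 882 CPM against 1038 to 1151 CPM.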

How the data were processed

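Stable RENCA populations were profiled in 6 libraries made with an Illumina TruSeq RNA kit. Reads were trimmed, aligned and summarised by the authors, who deposited 1 table of estimated counts per gene, neither scaled nor logged, in which 9.52 to 10.6% of values in a sample are not whole, and 2 columns of group means that were not used. The submitters' processing notes name fastp, HISAT2, featureCounts and Subread with GRCm38 (mm10), whereas the study's methods name GRCm39; no versions or strand setting are given. Columns of no sample numbered 0. Gene positions and exon lengths were taken from GENCODE M39 (GRCm39), in which all 68 members were found by identifier, and the table's own coordinates were not used.

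Counts were rounded and genes kept by filterByExpr (15522 genes). They were scaled by TMM (factors 0.993 to 1.006) and tested with limma-voom (limma 3.58.1, edgeR 4.0.16, R 4.3.3) as oe-AQP1 against oe-NC without further terms. The procedure was tested on simulated data with 200 changed genes. Each was changed beyond the DEG threshold, so calls at a smaller log2FC were not covered. The FDR threshold was 0.05, and DEGs also had an absolute log2FC above 1. These are the thresholds of the study. The study also removed genes of the interferon response and viral defence as transfection artifacts before it counted its DEGs. That removal was not done here, so the DEG counts are not those of the study. CPM refers to TMM-scaled libraries. Shared sequence was counted in 100-base stretches of GENCODE transcripts. Alternatives were edgeR quasi-likelihood, DESeq2 1.42.0, sample weights, other scalings and filters, protein-coding genes only, a replicate block and each sample left out.

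Named genes were all DEGs, the cluster and chromatin members and the 2 highest members per length, with counts in every sample, every other member past the FDR threshold, and the extremes of each list; Trim2, Trim17, Trim35 and members not past the threshold were named in addition after their values were seen. The members and lists were chosen with earlier results of these data known.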

Additional observations from a re-analysis of the deposited data

How the results depend on the processing

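Of the 16 higher members, 14 to 16 kept their call in each of the 16 alternatives, and the 9 DEGs fell to 7 only with a minimum of 10 counts in every sample, which left Trim30b and Trim30c untested. With 1 sample left out at a time, the higher members numbered 15 to 23, the maximum being without oe-NC sample 1, and the lower members 1 to 3. The 3 lower members became 1 with DESeq2, 5 with sample weights and 1 with no low-count filter, and Trim67 lost its call in 9 alternatives, Trim7 in 5 and Trim33 in 4. With samples left out, the log2FC of Trim28 ran from -0.0139 (without oe-NC sample 3) to 0.0893 (without oe-NC sample 1, then called) and that of Trim66 from -0.0859 to 0.0075 (without oe-NC sample 2), so the sign of both changed, and neither was called with all samples. Of the TRIM-type list, the 1 lower gene became 0 with DESeq2, 2 with sample weights and 0 with no low-count filter, and 0 to 2 when samples were left out. The 1 lower activating or conjugating enzyme became 2 with sample weights and 1 to 2 when samples were left out, the 2 lower sensors 1 to 2, and the 3 lower corepressor genes 1 to 5. Over all genes, 681 higher DEGs became 416 with the minimum of 10 counts and 422 among protein-coding genes only, and 131 lower DEGs became 204 with no filter and 66 with the minimum of 10. The cause was not tested, except that filters change the genes tested (34240 with no filter, 14006 with the minimum of 10).

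Samples with the same replicate number did not deviate together (r = -0.00, 0.02 and -0.05 across genes). With 3 samples per group, these values cannot tell whether the samples were handled in pairs. With the replicate block, 16 members were higher and 2 lower (Trim67 lost), 9 were DEGs, and 2 genes of the TRIM-type list were lower. Over all genes the block gave 2346 higher and 2479 lower calls, against 2481 and 2569.

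Depth limits the statements on the 23 untested members and on Trim30b, Trim12a, Trim71 and Trim29, which had 2 to 25 counts per sample.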
